A study of Rattus norvegicus with 6 samples.

Results

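The mitotic cyclins, the kinase Cdk1 that they activate, and the regulators of this kinase were examined in cultured rat oligodendrocyte precursor cells (OPCs), proliferating glial cells from which myelinating oligodendrocytes form. The genes were taken by name from the deposited count table: Ccna2, Ccnb1, Ccnb2, Cdk1, Cdc25a, Cdc25b, Cdc25c, Wee1, Foxm1 and Mybl2. Of these 10 genes, 9 have a row in the table of 32883 genes, and Ccnb2 was not analysed here. All 9 passed the filter on low counts, which left 14670 genes for testing.

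The cells came from the cortices of newborn (P0) Sprague Dawley rats. After 7 days of mixed culture with serum, OPCs were shaken off and kept in Neurobasal with the B27 and N2 supplements. One group of 3 libraries received 5 µM ZJU-37, an inhibitor of the kinase RIPK1, and the other group of 3 received the same volume of its solvent DMSO. The labels give 36 h of treatment, whereas the study's methods text gives a shorter time. The labels name no genetic change, and they give 2 cortices as the source without saying how animals were spread over libraries. The methods speak of biological repeats and a legend speaks of plate wells, so that p-values measure the spread between these libraries, which may be technical.

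Cdk1 is silent without a cyclin. Cyclin A2 and the B-type cyclins bind it and carry a cell through G2 into mitosis, and their destruction lets the cell leave mitosis again. Wee1 and the related kinase Pkmyt1 hold the cyclin-bound kinase in check by phosphorylating it, the Cdc25 phosphatases remove that brake, and the transcription factors Foxm1 and Mybl2 (B-Myb), the latter bound to the MuvB core, drive the genes of G2 and mitosis. In the oligodendrocyte lineage, OPCs keep dividing until they leave the cell cycle and differentiate.

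With ZJU-37, all 9 measured genes were upregulated. Ccna2, Ccnb1, Cdk1, Cdc25c, Foxm1 and Mybl2 rose by between 2.16- and 2.57-fold, Wee1 and Cdc25b by 1.78- and 1.72-fold, and Cdc25a by 1.40-fold. The activator cyclins and the inhibitory kinase thus rose in the same libraries. All 9 passed edgeR's quasi-likelihood test at an adjusted p-value (Benjamini-Hochberg, over all tested genes) under 0.05, where 9.43% of the tested genes were called higher and 5.58% lower. When the fit included a replicate block, the 9 were again called higher, beside 16.2% of all genes higher and 15.9% lower. In all 9 genes each ZJU-37 library lay above each DMSO library, a pattern held by 19.0% of the tested genes. A log2 fold change of at least 1 was reached by 6 of the 9, against 2.79% of the tested genes. The median log2 fold change was 1.23 for the 9 genes and -0.03 for all tested genes. RNA from a bulk culture does not tell a change in the share of cells of one kind from a change in the RNA per cell, so more cells in G2 and mitosis and more transcript per cell cannot be told apart.

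The letters before these genes are shown first, since the CCAAT box and the CHR (cell cycle genes homology region) are the elements through which NF-Y and the MuvB complexes act on genes of this class. The windows run from 250 bases before to 50 bases after the annotated start site and come from RefSeq on assembly GRCr8, which held 7 of the 10 genes (Ccnb1, Ccnb2, Cdk1, Cdc25a, Cdc25b, Cdc25c and Mybl2). The motifs searched on both strands were CCAAT, the CHR as TTTGAA or TTTAAA, an E2F-like site as TTTNNCGC, and a forkhead core as TAAACA. No 2 of these motifs share letters in the windows printed here. Below, each window is written 5′ to 3′ on the strand of its gene, with every match in capitals. Ccnb1 and Cdk1 represent the strongly raised genes with both a CCAAT box and a CHR, Cdc25a and Cdc25b the weakly raised phosphatases, and Mybl2 the gene with the highest fold change. The positions are chr2:33655176-33655475 (minus strand) for Ccnb1, chr20:19265043-19265342 (plus) for Cdk1, chr8:118742798-118743097 (plus) for Cdc25a, chr3:138859923-138860222 (plus) for Cdc25b and chr3:172124555-172124854 (plus) for Mybl2.
Ccnb1: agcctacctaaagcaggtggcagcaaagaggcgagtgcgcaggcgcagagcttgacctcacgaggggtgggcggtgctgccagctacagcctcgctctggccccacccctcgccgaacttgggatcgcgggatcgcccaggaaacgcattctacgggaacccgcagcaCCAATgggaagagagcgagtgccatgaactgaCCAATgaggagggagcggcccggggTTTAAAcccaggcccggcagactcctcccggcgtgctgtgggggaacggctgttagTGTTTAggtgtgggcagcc
Cdk1: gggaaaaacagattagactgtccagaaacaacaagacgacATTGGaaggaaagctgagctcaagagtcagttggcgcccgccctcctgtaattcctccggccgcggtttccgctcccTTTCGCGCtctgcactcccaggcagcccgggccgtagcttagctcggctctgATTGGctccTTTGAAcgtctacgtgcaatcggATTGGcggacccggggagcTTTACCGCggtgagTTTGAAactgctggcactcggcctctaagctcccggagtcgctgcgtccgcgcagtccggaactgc
Cdc25a: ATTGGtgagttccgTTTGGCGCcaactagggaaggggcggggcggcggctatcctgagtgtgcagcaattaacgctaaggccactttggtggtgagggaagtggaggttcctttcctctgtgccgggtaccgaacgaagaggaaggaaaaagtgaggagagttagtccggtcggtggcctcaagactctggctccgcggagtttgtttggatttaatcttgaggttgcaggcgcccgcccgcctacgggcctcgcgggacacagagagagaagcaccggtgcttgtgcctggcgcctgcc
Cdc25b: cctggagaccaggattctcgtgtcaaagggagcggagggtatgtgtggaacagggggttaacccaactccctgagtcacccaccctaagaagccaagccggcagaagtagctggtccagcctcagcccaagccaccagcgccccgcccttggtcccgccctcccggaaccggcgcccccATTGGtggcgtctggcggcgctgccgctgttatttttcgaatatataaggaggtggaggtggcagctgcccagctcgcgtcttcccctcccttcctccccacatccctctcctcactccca
Mybl2: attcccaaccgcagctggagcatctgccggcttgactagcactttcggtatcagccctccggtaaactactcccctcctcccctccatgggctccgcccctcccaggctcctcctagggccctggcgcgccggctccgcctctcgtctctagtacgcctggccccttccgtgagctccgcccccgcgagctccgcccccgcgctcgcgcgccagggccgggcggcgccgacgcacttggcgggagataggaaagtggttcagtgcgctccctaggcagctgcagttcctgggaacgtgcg

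Positions are those of the first base of a match, counted from the start site. The Ccnb1 window holds CCAAT boxes at -82 and -50, a CHR at -25 and a forkhead core at 32. The Cdk1 window holds CCAAT boxes at -210, -81 and -49, CHR matches at -72 and -16, and E2F-like sites at -133 and -30. Both genes thus carry a pair of CCAAT boxes close to the start site with a CHR downstream of them. Cdc25a has a CCAAT box at -250 next to an E2F-like site at -236, both far from the start, and Cdc25b has a single CCAAT box at -71. Cdc25c, whose letters are not shown, has 4 CCAAT boxes and a CHR at -60, and Ccnb2 has 3 CCAAT boxes and 2 CHR matches. The Mybl2 window holds no exact match to any of the 4 motifs as spelled here. Sites that differ from these letters, such as other forms of an E2F site, were not searched. Over the 7 windows, 6 hold a CCAAT box and 4 hold at least 2, whereas 37.5% of all 33469 RefSeq rat windows of this length hold 1 and 11.2% hold at least 2. A CHR is in 4 of the 7 and in 28.3% of all windows, an E2F-like site in 2 and in 4.92%, and a forkhead core in 1 and in 13.7%. These matches describe letters, and binding was not measured.

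**Figure D1:**
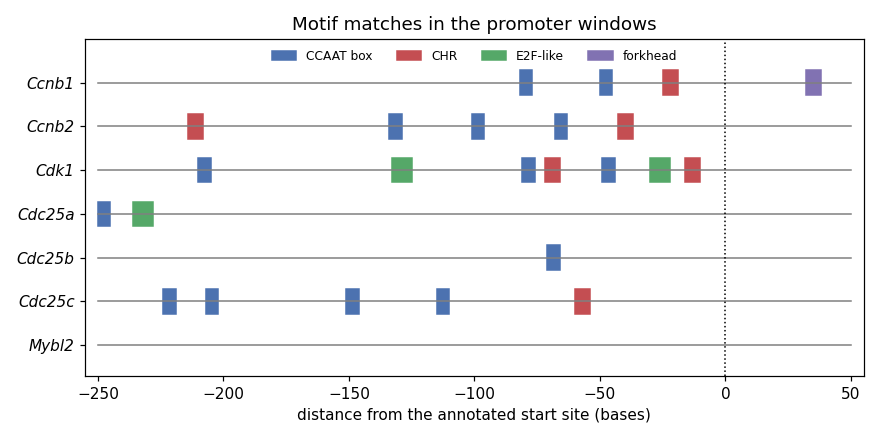
Motif matches in the 7 RefSeq promoter windows, one line per gene, with the distance from the annotated start site in bases on the horizontal axis and a coloured box for each match. Cdk1 and Ccnb1 carry CCAAT boxes and a CHR shortly before the start site, and the Mybl2 line holds no exact match to the letters searched.

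The libraries held between 13935865 and 24097927 counts, so that 3 counts are worth 0.124 to 0.215 CPM, the unit of level used here, in which a count is divided by its TMM-scaled library total. This limit covers counting error only. Mitochondrial transcripts took between 3.52% and 3.80% of the counts of each library. The summed level of 6 OPC markers was between 3528 and 4099 CPM with DMSO and between 4382 and 6032 CPM with ZJU-37, with 4 of them called higher and Sox10 lower with ZJU-37. Summed markers of oligodendrocytes were between 12864 and 24407 CPM with DMSO and between 5066 and 10188 CPM with ZJU-37, with 3 of the 8 called lower (6 with the block). For these and the marker counts below, 9.43% of all tested genes were called higher and 5.58% lower. With the block the shares were 16.2% and 15.9%. All 6 OPC markers were detected, and so were all 8 oligodendrocyte markers, so that the labelled OPC cultures also held transcripts of differentiated oligodendrocytes. The 2 sums hold different genes of different lengths and are not set against each other. None of 13 microglia markers was called (7 lower with the block), with sums of 2671 to 4614 CPM under DMSO and 1952 to 4060 CPM under ZJU-37. The ZJU-37 library with the lowest microglia sum and the highest OPC sum, replicate 1, was also the highest in 7 of the 9 genes. Of the astrocyte markers, 1 of 7 tested was called higher (4 lower with the block) with sums of 400 to 763 and 284 to 514 CPM. None of 8 neuron markers (331 to 503 and 288 to 404 CPM) and none of 8 tested fibroblast, mural and endothelial markers (90.8 to 165 and 51.3 to 123 CPM) was called, and with the block 4 and 3 of them were lower. The endothelial marker Cldn5 was at 0 counts, and Gjb6 and Rgs5 stayed under 10 counts in every library. The part of these cell types in the results below was not tested.

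The cyclins that activate Cdk1 were the first group examined. Ccna2 (ENSRNOG00000015423, chromosome 2, 123275881 to 123282214, minus strand, in the coordinates of the table, whose build is not given in the sources used here) encodes cyclin A2, which serves Cdk2 in S phase and Cdk1 in G2. It stood at 57.9, 61.9 and 56.3 CPM in the controls (DMSO, listed throughout as replicates 1, 2 and 3) and at 158, 135 and 137 CPM in the same order after ZJU-37. The lowest ZJU-37 library was thus far above the highest DMSO library. The means were 58.7 ± 2.88 and 143 ± 12.7 CPM (SD, n = 3 each), a log2 fold change of 1.29 with a standard error of 0.08 (edgeR, adjusted p = 0.00032). The whole span of Ccna2, 6334 bases, lies within that of Exosc9, a subunit of the RNA exosome on the opposite strand, and the library kit does not mark strand. Exosc9 rose from 46.7 ± 3.42 to 65.2 ± 3.42 CPM, a log2 fold change of 0.48 ± 0.08 (SE, adjusted p = 0.0080). How reads in shared exons were assigned was not tested, which leaves the Ccna2 level uncertain.

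Ccnb1 (ENSRNOG00000058539, chromosome 2, 30783915 to 30791221, minus strand) encodes cyclin B1, the main partner of Cdk1 in mitosis. Its DMSO libraries lay at 47.6, 48.8 and 47.9 CPM and its ZJU-37 libraries at 127, 113 and 113 CPM. The DMSO values were nearly equal, and ZJU-37 replicate 1 stood above the other two treated libraries. The mean rose from 48.1 ± 0.611 to 118 ± 7.92 CPM, a log2 fold change of 1.29 ± 0.07 (SE), with the lowest adjusted p-value of the 9 genes (edgeR, 0.00022). Cyclins A2 and B1 thus rose by nearly the same factor, 2.44-fold each.

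Cdk1 itself (ENSRNOG00000000632, chromosome 20, 20576377 to 20591549, plus strand), whose promoter window above holds both CCAAT boxes and CHR matches, had 60.7, 68.9 and 59.9 CPM with DMSO. With ZJU-37 it had 157, 144 and 143 CPM. DMSO replicate 2 was the highest control library here, as in 6 of the 9 genes, and ZJU-37 replicate 1 the highest treated one. The mean increased from 63.2 ± 4.98 to 148 ± 7.91 CPM, a log2 fold change of 1.23 ± 0.08 (SE, edgeR adjusted p = 0.00032). Between libraries of the same replicate number the log2 difference was 1.37, 1.06 and 1.26.

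**Figure D2:**
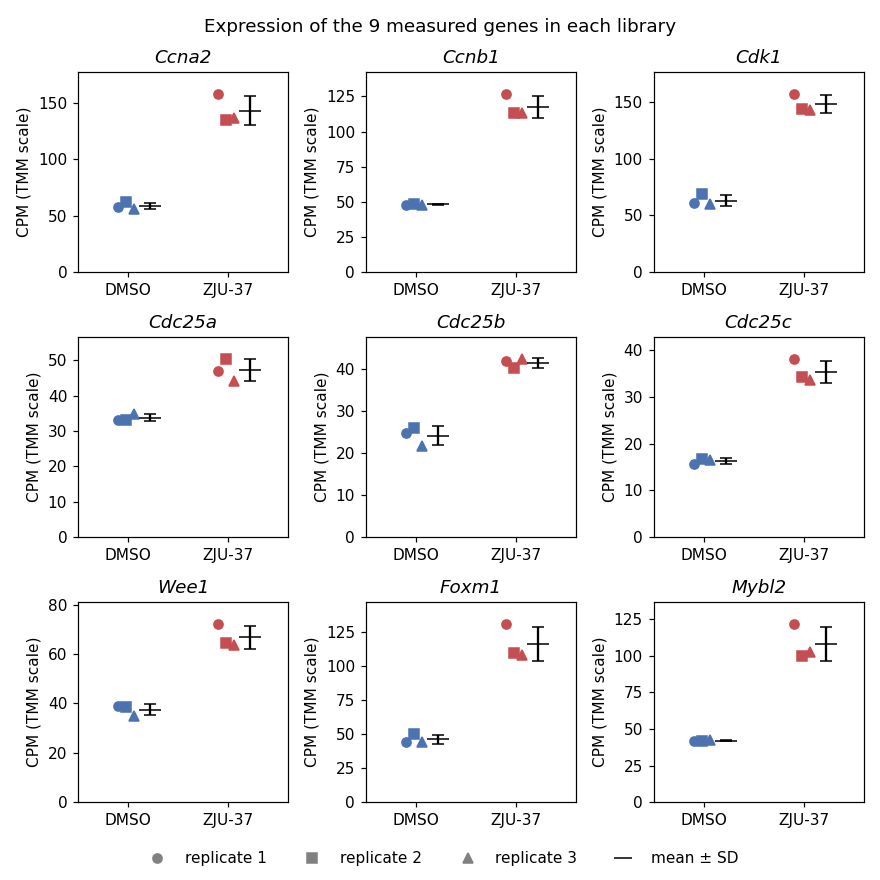
Expression of each of the 9 genes in CPM on the TMM scale, with each axis starting at 0, circles, squares and triangles for replicates 1, 2 and 3 of each group, and the mean ± SD (n = 3) beside them. No ZJU-37 library overlaps a DMSO library in any panel, with the narrowest gap for Cdc25a (34.8 against 44.1 CPM).

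The Cdc25 phosphatases, which remove the inhibitory phosphates from Cdk1, rose unequally. Cdc25a (ENSRNOG00000020737, chromosome 8, 117953444 to 117971519, plus strand) is the family member that also acts at the entry into S phase. It was at 33.0, 33.2 and 34.8 CPM with DMSO and at 47.0, 50.3 and 44.1 CPM with ZJU-37. Groups did not overlap, but the step was small. The means were 33.7 ± 0.992 and 47.1 ± 3.09 CPM, a log2 fold change of 0.48 ± 0.07 (SE, edgeR adjusted p = 0.0059), the smallest fold change of the 9 and the highest adjusted p-value. Replicate 2 was here the highest ZJU-37 library.

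Cdc25b (ENSRNOG00000021248, chromosome 3, 123731539 to 123741339, plus strand), which starts Cdk1 activation in late G2, was at 24.8, 25.9 and 21.7 CPM with DMSO and at 41.8, 40.1 and 42.2 CPM with ZJU-37. The treated libraries were tight, and replicate 3 was the lowest control and the highest treated library. From 24.1 ± 2.21 to 41.4 ± 1.15 CPM, the log2 fold change was 0.78 ± 0.09 (SE, edgeR adjusted p = 0.0017). Cdc25c (ENSRNOG00000024008, chromosome 18, 27528354 to 27550224, minus strand), which acts at the onset of mitosis, had the lowest level per length of the 9, as given further on in FPKM. It had 15.6, 16.7 and 16.5 CPM with DMSO and 38.1, 34.3 and 33.6 CPM with ZJU-37, so that every treated library exceeded every control by more than the spread within either group. Its mean rose from 16.3 ± 0.578 to 35.3 ± 2.42 CPM, a log2 fold change of 1.11 ± 0.08 (SE, edgeR adjusted p = 0.00045).

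Wee1 (ENSRNOG00000010017, chromosome 1, 174767960 to 174786361, plus strand), the kinase that opposes the Cdc25 phosphatases, was at 38.9, 38.8 and 34.9 CPM with DMSO. With ZJU-37 it was at 72.1, 64.4 and 63.8 CPM. The transcript of this brake was therefore higher in every treated library. The mean rose from 37.5 ± 2.26 to 66.8 ± 4.61 CPM, a log2 fold change of 0.83 ± 0.08 (SE, edgeR adjusted p = 0.00096). Pkmyt1, the other inhibitory kinase of Cdk1, was named after its values were seen and rose from 11.2 ± 0.727 to 21.4 ± 2.05 CPM, a log2 fold change of 0.94 ± 0.11 (SE, edgeR adjusted p = 0.0021).

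The transcription factors of the G2/M programme gave the highest fold changes. Foxm1 (ENSRNOG00000005936, chromosome 4, 161685258 to 161696305, plus strand) encodes a forkhead factor that activates genes such as Ccnb1. It was at 44.2, 50.1 and 43.9 CPM with DMSO and at 131, 110 and 108 CPM with ZJU-37. Replicate 1 was the highest treated library, and the groups did not overlap. The mean rose from 46.1 ± 3.50 to 116 ± 12.5 CPM, a log2 fold change of 1.33 ± 0.10 (SE, edgeR adjusted p = 0.00044). Mybl2 (ENSRNOG00000007805, chromosome 3, 159421671 to 159450086, plus strand) encodes B-Myb and is itself a target of E2F factors. It was at 42.1, 41.9 and 42.3 CPM with DMSO and at 122, 99.9 and 103 CPM with ZJU-37. Its controls were the tightest of all 9 genes, with a coefficient of variation of 0.477%, against 10.9% in its treated libraries. From 42.1 ± 0.201 to 108 ± 11.7 CPM, the log2 fold change of 1.36 ± 0.09 (SE, edgeR adjusted p = 0.00032) ranked 173rd of the 14670 tested genes, where that of Cdc25a ranked 1493rd.

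**Figure D3:**
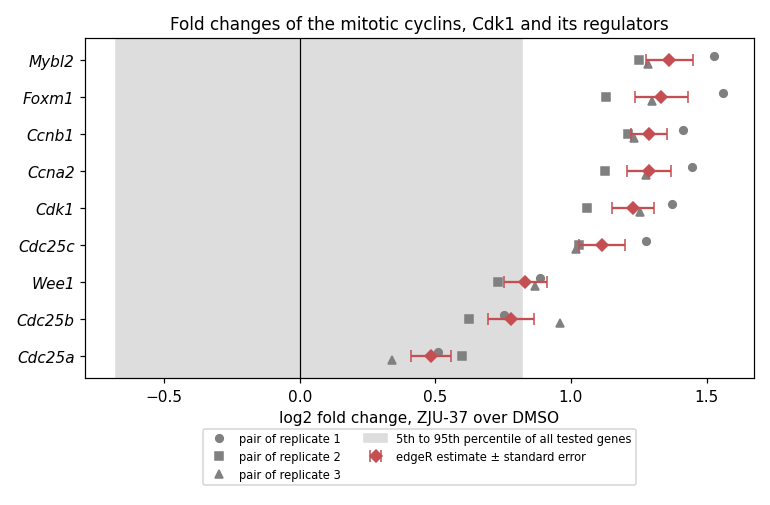
Log2 fold change of ZJU-37 over DMSO for the 9 genes (horizontal axis), with the edgeR estimate and its standard error as diamonds with bars, the differences between same-numbered libraries in grey, and a grey band for the 5th to 95th percentile of all tested genes (-0.68 to 0.82). Wee1 lies at the edge of the band and Cdc25b and Cdc25a inside it, and the other 6 genes lie to its right.

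The 3 pairs of same-numbered libraries gave a positive difference in every gene. The largest of the 3 was in pair 1 for 7 genes, in pair 2 for Cdc25a and in pair 3 for Cdc25b. Among the ZJU-37 libraries, the highest value was in replicate 1 for 7 genes, and the lowest was in replicate 3 for 6 and in replicate 2 for 3. Foxm1 spanned the widest range of pair differences, from 1.13 to 1.56 on the log2 scale.

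Whether the genes moved by the same factor was examined with the ratio of each gene to Cdk1 within a library, which does not depend on the scaling between libraries. Wee1 stood at log2 ratios of -0.64, -0.83 and -0.78 in the 3 DMSO libraries and of -1.12, -1.16 and -1.17 in the 3 ZJU-37 libraries. Relative to Cdk1, there was less Wee1 transcript in each treated library than in any control, although the level of Wee1 itself was higher. Cdk1 rose by a log2 fold change of 1.23 (rank 288 of the 14670 tested genes), so a gene that rose less falls relative to it. The share of all tested genes whose ratio to Cdk1 did not overlap between groups was not computed. Cdc25a had log2 ratios of -0.88, -1.05 and -0.78 with DMSO and of -1.74, -1.51 and -1.70 with ZJU-37, a difference of -0.75 (a factor of 0.596). For Cdc25b the difference was -0.45 (0.732), for Wee1 -0.40 (0.757) and for Cdc25c -0.12 (0.920), and none of these overlapped between groups. For Foxm1 it was 0.10 (1.07), without overlap. Mybl2 (0.13), Ccnb1 (0.06) and Ccna2 (0.05) differed by little, and their ranges overlapped. With 3 libraries against 3 the two-sided exact permutation test cannot go below p = 0.1. The 5 ratios without overlap had this p (adjusted over the 8 ratios, 0.16), Mybl2 and Ccna2 had p = 0.2 (adjusted 0.229), and Ccnb1 had p = 0.4 (exact test, adjusted 0.4), so that no ratio passed the threshold. With same-numbered libraries paired, the exact test gave p = 0.25 for each ratio except that of Ccnb1 (p = 0.5). With 3 pairs this test cannot go lower than 0.25. The small differences moved when 1 library was left out: that of Foxm1 was 0.06 without ZJU-37 replicate 1, that of Cdc25c was -0.07 without DMSO replicate 3, and without DMSO replicate 2 the differences were 0.06 for Mybl2, 0.03 for Ccna2 and 0.0020 for Ccnb1. Without ZJU-37 replicate 1 they were 0.08 for Mybl2 and 0.03 for Ccna2, and without DMSO replicate 3 that of Ccnb1 was 0.09.

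**Figure D4:**
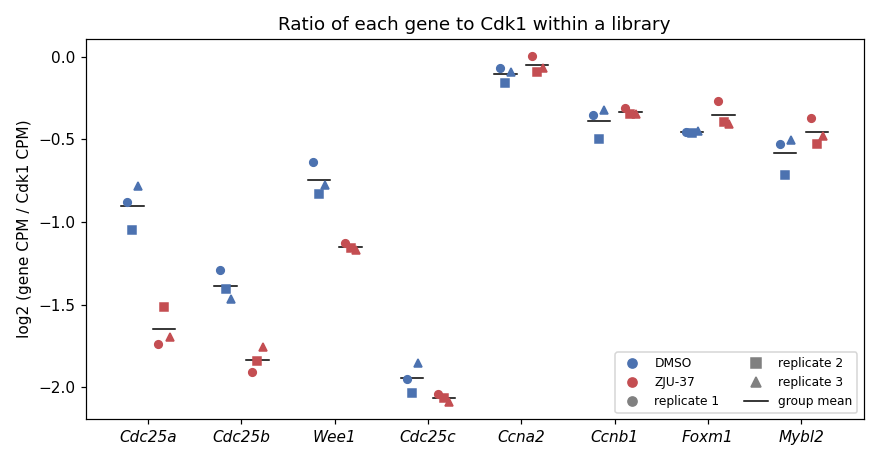
Log2 ratio of the CPM of each of 8 genes to that of Cdk1 in the same library, with DMSO in blue, ZJU-37 in red, a marker shape for each replicate and a bar at each group mean. The ratios of Cdc25a, Cdc25b and Wee1 sit lower in the 3 ZJU-37 libraries, and those of the cyclins and Mybl2 overlap between groups.

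Levels can be set against each other only per transcript length, for which the authors' FPKM values (fragments scaled by gene length and library total) were used. With DMSO, Cdk1 was highest at 44.6 ± 3.74 FPKM (SD, n = 3), followed by Ccnb1 at 29.8 ± 0.533, Ccna2 at 24.7 ± 1.33 and Foxm1 at 13.4 ± 1.09 FPKM. Wee1 at 11.4 ± 0.701 and Mybl2 at 11.3 ± 0.0402 FPKM overlapped, and below them came Cdc25a at 9.80 ± 0.284, Cdc25b at 8.59 ± 0.810 and Cdc25c at 4.89 ± 0.195 FPKM. Apart from Wee1 and Mybl2, neighbours in this order did not overlap. The kinase and its cyclins thus headed the order, and the phosphatases closed it. With ZJU-37, Cdk1 was at 104 ± 6.76, Ccnb1 at 72.7 ± 5.74 and Ccna2 at 60.2 ± 6.02 FPKM, again without overlap. Foxm1 at 33.8 ± 4.04 FPKM overlapped with Mybl2 at 29.0 ± 3.48, and Cdc25b at 14.7 ± 0.478 overlapped with Cdc25a at 13.7 ± 0.912 FPKM. Wee1 at 20.3 ± 1.63 FPKM lay below Mybl2, and Cdc25c at 10.6 ± 0.847 FPKM stayed last. Wee1 and Mybl2 changed places between the groups, as did Cdc25a and Cdc25b, but each of these pairs overlapped in one of the groups.

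By the mean profile of the 9 genes over the 6 libraries (log2 CPM, centred per gene), the 5 nearest other genes were Rpa2, Rfc4, Prim1, Pbk and Dnmt1. Likeness was the root mean square distance on the log2 scale, 0.0199 for Rpa2, 0.0302 for Rfc4, 0.0381 for Prim1, 0.0391 for Pbk and 0.0421 for Dnmt1. Rpa2 is a subunit of the single-strand DNA binding protein RPA, Rfc4 part of the clamp loader, Prim1 the DNA primase, Pbk a mitotic kinase and Dnmt1 the maintenance DNA methyltransferase. The distance favours genes with a fold change near the mean of the 9, and these 5 had log2 fold changes of 1.05 (Rfc4) to 1.10 (Prim1). Among the 9 genes themselves, Cdc25c was nearest to the mean (0.0366, place 3 of 14670 genes) and Cdc25a farthest (0.310, place 988). The 9 genes define the profile, so their places are no separate result.

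The genes around the Cdk1 switch were taken next. This list and those below were drawn up by function, with earlier results of these data known, so their counts are descriptions. Of 19 tested neighbours, 12 were higher, none was lower and 7 were not called, beside 9.43% of all tested genes higher and 5.58% lower. The neighbours had a median log2 fold change of 0.72. Plk1, the kinase that promotes Cdc25 activity and Wee1 destruction, rose from 43.0 ± 0.339 to 101 ± 7.65 CPM (log2 fold change 1.23 ± 0.07 SE, edgeR adjusted p = 0.00028). Cks2, a small Cdk-binding subunit, rose by 1.14 on the log2 scale, Ccnf (cyclin F) by 1.13 and Mastl (Greatwall, which restrains the phosphatase that opposes Cdk1) by 1.12. The members of the Cdk-activating kinase were not called, with log2 fold changes of 0.09 for Cdk7, 0.08 for Ccnh and 0.23 for Mnat1, and Ensa, the substrate of Greatwall, stood at 0.06. These 4 were named after their values were seen. Ccnb3 had 0 counts in all DMSO libraries and did not pass the filter, and Chek1 was not analysed here.

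Of 24 listed genes around the destruction of mitotic cyclins, which include the inhibitor Fbxo5 and the scaffold Cul1, 6 were higher and 18 were not called. With the replicate block 9 were higher. Over all tested genes, 9.43% were called higher, and 16.2% with the block. The list had a median log2 fold change of 0.11. Ube2c, the ubiquitin-conjugating enzyme of the anaphase-promoting complex (APC/C), rose from 37.4 ± 0.926 to 90.2 ± 6.25 CPM (log2 fold change 1.27 ± 0.07 SE, edgeR adjusted p = 0.00027). Cdc20, its mitotic activator, rose from 63.5 ± 2.34 to 148 ± 16.3 CPM (1.22 ± 0.09 SE, adjusted p = 0.00043). Fbxo5 (Emi1), an APC/C inhibitor, rose from 14.1 ± 0.948 to 28.3 ± 3.40 CPM, and Fzr1 (Cdh1), its activator in G1, by 0.49 on the log2 scale. Of the complex's own subunits on the list, Cdc16 was called, at a log2 fold change of 0.26 (adjusted p = 0.036), and with the replicate block Anapc1, Anapc5 and the ubiquitin ligase scaffold Cul1 were called higher as well. These 4 genes were named after their values were seen.

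Of 15 listed genes around MuvB, DREAM and NF-Y, 7 were higher, 1 lower and 7 not called (median log2 fold change 0.17). Over all tested genes, 9.43% were called higher and 5.58% lower. With the replicate block 8 were higher and 1 lower, beside 16.2% and 15.9% of all tested genes. The NF-Y subunit Nfya (log2 fold change 0.17, edgeR adjusted p = 0.10) was then called (adjusted p = 0.044), a gene named after its values were seen. Lin9, the MuvB subunit that contacts B-Myb, rose from 8.28 ± 0.681 to 15.0 ± 0.256 CPM (0.86 ± 0.11 SE, edgeR adjusted p = 0.0029). Mybl1 (A-Myb) rose by 0.84, Rbl1 (p107) by 0.79 and E2f5 by 0.55 on the log2 scale. Rbl2 (p130), the pocket protein of the repressive DREAM complex in resting cells, fell from 83.6 ± 3.92 to 68.8 ± 0.521 CPM (log2 fold change -0.28 ± 0.06 SE, adjusted p = 0.021). The list's count dropped to 4 without DMSO replicate 2 and without ZJU-37 replicate 3, to 5 without DMSO replicate 3, and Rbl2 was not called without DMSO replicate 1 or 2 or without ZJU-37 replicate 2 or 3.

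All 48 listed target genes of G2 and mitosis were higher, with a median log2 fold change of 1.24 and a range of 0.70 to 1.49, and 43 of them reached a log2 fold change of 1. Over all tested genes, 9.43% were called higher, 5.58% lower, and 2.79% were called at a log2 fold change of at least 1. Troap (1.49), Spag5 (1.48, whose symbol has 2 rows in the table, of which the larger was used), Racgap1 (1.42) and Cenpf (1.39) rose most. Cenpf, a kinetochore protein, went from 70.0 ± 3.96 to 184 ± 24.2 CPM (edgeR adjusted p = 0.00046). Of 41 tested genes of the G1/S programme, 39 were higher and none lower, with a median of 1.04. Rrm2, the regulated subunit of ribonucleotide reductase, rose from 60.8 ± 3.75 to 183 ± 14.5 CPM (1.59 ± 0.08 SE, edgeR adjusted p = 0.00022), Cdc6 by 1.5 and Dtl by 1.44 on the log2 scale. Wdr76 (0.58, edgeR adjusted p = 0.071) and Hells (2.52, edgeR adjusted p = 0.12) were not called in the fit without the block. With the replicate block Wdr76 was called (edgeR adjusted p = 0.021) and Hells was not (0.36). Hells ranged from 0.824 to 8.92 CPM among the ZJU-37 libraries. E2f1 was not analysed here.

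**Figure D5:**
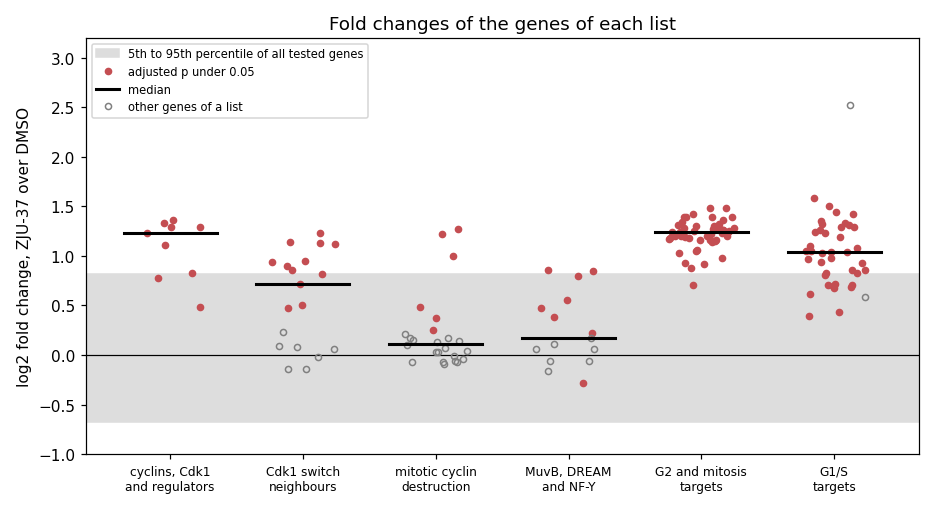
Log2 fold change of ZJU-37 over DMSO for each tested gene of the 9 and of the 5 lists, with filled red points for genes at an adjusted p under 0.05, open grey points for the others, a black bar at each median and a grey band for the 5th to 95th percentile of all tested genes. The 48 targets of G2 and mitosis form a narrow cloud around 1.24, and the genes of mitotic cyclin destruction and of MuvB, DREAM and NF-Y lie mostly inside the band.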

How the data were processed

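Poly-A RNA of 6 libraries was sequenced. The submitters' processing notes name HISAT2 2.0.5, StringTie 1.3.3b and featureCounts 1.5.0, and the genome build is not given in the sources used here. The authors deposited raw counts per gene, neither normalized nor filtered, and FPKM values, in which the authors scaled each count by gene length and by a total that was 0.979 to 1.03 times the library's count sum. The table also holds the authors' own fold changes and p-values, which were not used.

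Low counts were removed by filterByExpr, TMM factors ran from 0.981 to 1.04, and the 6 libraries were fitted in R 4.3.3 by the quasi-likelihood method of edgeR 4.0.16 (robust glmQLFit, then glmQLFTest), with Benjamini-Hochberg adjustment over 14670 genes and a threshold of 0.05. Standard errors are the log2 fold change divided by the square root of F. Ratios to Cdk1 and the likeness used log2 CPM with a prior count of 2. The ratio test was planned for 9 ratios and made on 8, since Ccnb2 was not analysed here. The scripts were tested on simulated data. The libraries were not duplicates of each other (chi-square of at least 11.9 per degree of freedom).

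Replicate numbers come from the sample labels. After the group mean of each gene was subtracted, libraries with the same number correlated over genes (r = 0.394, 0.312 and 0.329). The numbers were therefore taken to pair the libraries, genes not being independent replicates. For the other pairs r lay between -0.271 and -0.0116. The deviations within a group cancel for each gene, so these negative values follow from the positive ones and are no separate evidence. The main fit has no block, since the study's methods name none.

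The 9 genes and the lists were chosen with earlier results of these data known. In each pathway list the genes named are up to 4 of the largest increases and up to 2 of the largest decreases among those called, any gene with under 3 counts in every library of a group, and the 5 nearest genes by likeness. One item that this rule names is not reported here. Of the marker lists, Pecam1 was not analysed here. Alternatives were the replicate block, DESeq2 size factors, library size alone, no filter, at least 10 counts in every library, DESeq2 1.42.0, limma-voom (limma 3.58.1), thinning to the smallest library, each library left out in turn, a log2 fold change of at least 1, a prior count of 0.5 and counts per kilobase.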

Additional observations from a re-analysis of the deposited data

How the results depend on the processing

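Each of the 9 genes was called higher in all 14 alternative fits, with log2 fold changes of 1.23 to 1.36 for Ccna2, 1.25 to 1.35 for Ccnb1, 1.19 to 1.3 for Cdk1, 0.46 to 0.55 for Cdc25a, 0.71 to 0.84 for Cdc25b, 1.07 to 1.17 for Cdc25c, 0.78 to 0.89 for Wee1, 1.26 to 1.41 for Foxm1 and 1.29 to 1.44 for Mybl2. The highest adjusted p-value was 0.032, for Cdc25a without DMSO replicate 2. The replicate block raised the genes called among all tested from 2201 (1383 higher) to 4705 (2371 higher) and changed the call of none of the 9 genes. When a log2 fold change of 1 or more in size was also required, the count was 622 over all genes, 6 for the 9 genes, 4 for the neighbours of the Cdk1 switch, 2 for mitotic cyclin destruction, 0 for MuvB, DREAM and NF-Y and 21 for G1/S targets, by construction of that limit. Leaving out 1 library gave between 1306 (without DMSO replicate 2) and 1927 genes (without ZJU-37 replicate 1), with 1351 without ZJU-37 replicate 3, fits in which fewer libraries enter. For MuvB, DREAM and NF-Y it gave between 4 and 6 calls, where the main fit gave 8. DESeq2 called 2588 genes. No ratio to Cdk1 changed sign, but leaving out 1 library moved those of Foxm1, Cdc25c, Mybl2, Ccna2 and Ccnb1 by over 1.5 times. With counts per kilobase in place of FPKM the order of levels was the same, and the ranges of Ccnb1 and Ccna2 overlapped with ZJU-37. With 3 libraries per group the exact test of a ratio cannot reach 0.05, and counting depth sets a floor of at most 0.215 CPM.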

Other observations

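A pseudogene that the table describes as similar to cyclin B2, AABR07000658.1 on chromosome 1, was singled out after its values were seen. Its controls 1 to 3 had 23.2, 22.1 and 18.0 CPM, and its treated libraries 1 to 3 had 51.4, 40.3 and 43.9 CPM. The means were 21.1 ± 2.76 and 45.2 ± 5.62 CPM (SD, n = 3 each), a log2 fold change of 1.10 ± 0.13 (SE, edgeR adjusted p = 0.0023). How many of its reads come from transcripts of other B-type cyclin genes was not tested.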
